A study of Mus musculus with 30 samples.

Results

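The integrated stress response and the serine pathway were followed through 32 genes in mouse hearts. The members were given as a list of gene symbols and matched to the 55487 rows of the deposited count table through the gene symbols of the GENCODE M21 annotation. All 32 symbols were found. They took 33 rows, because Ddit3 has a further identifier, which held 0 counts in every library and was left out. The list has 10 regulators (Atf4, Atf5, Ddit3, Trib3, Nupr1, Ppp1r15a, Eif4ebp1, Ddit4, Sesn2 and Chac1) and 2 secreted factors (Gdf15 and Fgf21). It has 6 genes of serine synthesis and one-carbon metabolism (Phgdh, Psat1, Psph, Shmt2, Mthfd2 and Mthfd1l) and 4 of asparagine, proline and cysteine synthesis (Asns, Aldh18a1, Pycr1 and Cth). The other members are 4 amino acid transporter subunits (Slc7a1, Slc7a5, Slc7a11 and Slc3a2) and 6 tRNA synthetases (Aars, Gars, Wars, Sars, Nars and Mars).

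Poly(A) RNA of 30 hearts, taken 8 weeks after surgery, was sequenced. TAC, transverse aortic constriction, narrows the aorta with a clip so that the heart pumps against a raised pressure, and sham surgery leaves the aorta open. The floxed cohort had 4 groups of 4 libraries. FF_sham and FF_TAC are Cpt1a floxed controls after sham surgery or TAC, and KO_sham and KO_TAC are mice labelled as cardiac-specific Cpt1a knockouts after the same surgeries. The labels name neither the Cre driver nor how completely Cpt1a is lost, and the series design speaks of a knockdown. The AAV9 cohort had C57Bl/6 mice given PBS (PBS_sham and PBS_TAC, 3 libraries each) or AAV9.Cpt1a (AAV_sham and AAV_TAC, 4 libraries each). The series design writes this vector AAV9.cTNTN.Cpt1a and calls the overexpression cardiac-specific. AAV9 is a virus capsid that reaches the heart well. Cpt1a encodes the enzyme that commits long-chain fatty acids to import into mitochondria. The study asked what Cpt1a does in the pressure-loaded heart. Ages and sexes are not given in the sources used here. The labels number the hearts within a group without saying that each came from a separate animal, so the p-values measure the spread between these samples.

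In the integrated stress response, kinases that sense mitochondrial damage, unfolded protein, missing amino acids or viral RNA phosphorylate the initiation factor eIF2. General translation then slows, while the mRNA of the transcription factor Atf4 is translated more. Atf4 pairs with C/EBP and other bZIP proteins and switches on genes for amino acid uptake, amino acid synthesis and tRNA charging, and genes that end the response again. In heart and skeletal muscle with failing mitochondria the same programme includes serine synthesis, mitochondrial folate enzymes and the circulating factors Fgf21 and Gdf15.

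The C/EBP-ATF response element is the composite site that Atf4 occupies together with a C/EBP protein. It was searched as TGATGNAA on both strands of the RefSeq promoter windows, which run from 250 bases before to 50 bases after each gene's start (build GRCm38.p6). Of the 32 members, 27 had a window. The letters occurred in the windows of 9 of those 27 members (33.3%), against 1219 of 27025 genes with a window (4.51%). The 9 are Chac1, Trib3, Slc7a11, Asns, Gars, Fgf21, Nupr1, Aars and Pycr1. A match is a description of the letters only, and a window without one says nothing about binding. None of the 6 serine and one-carbon genes is among them. In Trib3 the match lies 15 bases after the start, and Aars has a further match 10 bases after its start, and neither is printed. The stretches of 90 bases that hold the matches upstream of the start are shown because they hold the element searched, with the element in capitals and each stretch written 5′ to 3′ in the gene's direction.
Chac1 chr2:119351008-119351097 (+ strand): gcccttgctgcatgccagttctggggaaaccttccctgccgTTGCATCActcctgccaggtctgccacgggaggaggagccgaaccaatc
Slc7a11 chr3:50443631-50443720 (- strand): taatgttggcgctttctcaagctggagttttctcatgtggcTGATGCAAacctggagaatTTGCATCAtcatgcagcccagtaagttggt
Asns chr6:7693210-7693299 (- strand): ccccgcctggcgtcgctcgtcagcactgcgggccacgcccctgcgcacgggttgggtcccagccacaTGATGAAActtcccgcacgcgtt
Gars chr6:55037911-55038000 (+ strand): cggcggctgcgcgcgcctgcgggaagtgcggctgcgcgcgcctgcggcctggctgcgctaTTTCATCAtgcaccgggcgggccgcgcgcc
Fgf21 chr7:45615581-45615670 (- strand): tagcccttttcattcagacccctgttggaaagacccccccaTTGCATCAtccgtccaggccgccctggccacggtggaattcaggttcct
Nupr1 chr7:126625532-126625621 (- strand): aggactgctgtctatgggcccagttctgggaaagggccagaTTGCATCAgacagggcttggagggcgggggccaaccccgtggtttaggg
Aars chr8:111033689-111033778 (+ strand): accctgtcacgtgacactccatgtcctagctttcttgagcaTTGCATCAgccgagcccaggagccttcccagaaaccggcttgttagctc
Pycr1 chr11:120643803-120643892 (- strand): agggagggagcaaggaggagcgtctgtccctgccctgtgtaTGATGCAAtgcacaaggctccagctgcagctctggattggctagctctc

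The element begins 23 bases upstream of the start in Asns, 30 bases upstream in Gars and 103 bases upstream in Pycr1. It begins 110 bases upstream in Nupr1, 112 in Aars, 139 in Fgf21 and 193 in Chac1. Slc7a11 has the letters on both strands, 66 and 47 bases upstream. Of the 9 members with the letters, 7 had enough counts to be tested in the floxed cohort, and 6 of those 7 rose in KO_TAC against KO_sham. Of the 18 members with a window without the letters, 11 rose, and of the 5 members with no window, 3 rose, where 14.3% of all genes rose. Against FF_TAC 5 of the 7, 7 of the 18 and 0 of the 5 rose by edgeR, where 7.53% of all genes rose. The cyclic AMP response element, TGACGTCA, occurred in 1 of the 27 member windows, that of Ppp1r15a (3.7%), and in 549 of the 27025 genes (2.03%). It begins 12 bases upstream of the Ppp1r15a start and is in capitals.
Ppp1r15a chr7:45526269-45526358 (- strand): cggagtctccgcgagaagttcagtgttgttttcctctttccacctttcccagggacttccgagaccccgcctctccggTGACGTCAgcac

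Some libraries stood apart in ways that touch every comparison of the floxed cohort. Total counts ran from 14839758 to 22070373 per library. Haemoglobin transcripts summed to 1.40 to 51.1 CPM (counts scaled to a common library total) in 7 libraries, the libraries labelled FF_TAC 2 and 3 and KO_sham 2 and all 4 of KO_TAC, and to 384.0 to 678.3 CPM in the other 9 floxed libraries. The sum of 12 early response genes, which rise within minutes of a stimulus, was 2195 to 5793 CPM in the same 7 and 220.1 to 320.1 CPM in the other 9. Cpt1a itself was at 37.8 to 52.7 CPM in FF_sham and 11.1 to 19.6 CPM in KO_TAC. It was at 48.9, 20.3, 16.2 and 34.0 CPM in FF_TAC and at 22.5, 46.3, 20.3 and 23.7 CPM in KO_sham. Cpt1a thus goes against the genotype labels in 3 libraries, FF_TAC 2, FF_TAC 3 and KO_sham 2, which are called by their labels below. KO_TAC sample titles contain the word sham beside TAC, and the group was taken from the genotype and treatment fields. The 5 cardiomyocyte markers summed to 41693 to 55568 CPM in KO_TAC and 48554 to 54085 CPM in the other floxed libraries, and no defining marker of these was at 0. Atrial markers varied widely, at 3.63 to 8480 CPM in KO_TAC and 1.71 to 2800 CPM in the others. The 4 fibroblast markers summed to 1246 to 1472 CPM in KO_TAC and 630.7 to 952.8 CPM in the other floxed libraries, and the 4 endothelial markers to 358.6 to 521.7 CPM and 519.7 to 735.7 CPM. Single markers differed within these lists. Dcn (818 to 1136 CPM in KO_TAC, 425 to 721 in the others) and Col1a1 (218 to 299 and 89.3 to 190) were higher in every KO_TAC library, while Pdgfra (19.2 to 34.9 and 18.5 to 40.2) and Dpt (83.6 to 170 and 59.3 to 123) overlapped. Of the cardiomyocyte markers, Pln was lower in every KO_TAC library (902 to 1215 CPM against 1411 to 1980), Myh6 ran from 10733 to 23102 CPM against 22748 to 30354 and Tnnt2 from 9574 to 24088 CPM against 8665 to 13583. Of the endothelial markers, Kdr was lower in every KO_TAC library (55.2 to 99.3 CPM against 130 to 251). Pecam1 (155 to 210 and 151 to 230), Cdh5 (89.9 to 169 and 161 to 243) and Tek (34.1 to 51.7 and 50.2 to 70.4) overlapped. The part of these differences in the members' results was not tested. In whole hearts, fewer cells of a type and less RNA per cell cannot be told apart. In the AAV9 cohort, PBS_sham 3 stood apart, with cardiomyocyte markers at 19810 CPM against 45762 to 58735 CPM in the other 13 libraries and smooth muscle markers at 1666 CPM against 94.2 to 235.3 CPM.

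The members covered a wide range of levels. Per kilobase of exon, the highest means in FF_sham were Atf5 at 31.0 CPM per kb, Atf4 at 26.6 and Eif4ebp1 at 25.5. The lowest were Mthfd1l at 0.206, Fgf21 at 0.0305 and Slc7a11 at 0.00719 CPM per kb. In KO_TAC the order was headed by Atf4 at 91.1, Atf5 at 53.6, Ppp1r15a at 52.3 and Ddit3 at 47.9 CPM per kb. Fgf21 and Slc7a11 did not pass the filter on low counts, so 30 members were tested in each cohort. None of the 30 passed through KO_TAC alone, since each had at least 10 counts in 4 or more floxed libraries outside that group.

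Most members rose in knockout hearts after TAC against knockout hearts after sham surgery. In KO_TAC against KO_sham, 20 of the 30 tested members rose and none fell at an adjusted p under 0.05 (edgeR quasi-likelihood test with Benjamini-Hochberg adjustment over all genes). Of all 15596 genes tested, 14.3% rose in that comparison. The median log2 fold change was 0.94 over the 30 members and 0.02 over all genes. The members that rose were 8 of 10 regulators, Gdf15, 2 of 6 serine and one-carbon genes, 3 of 4 genes of asparagine, proline and cysteine synthesis, 2 of 3 tested transporter subunits and 4 of 6 tRNA synthetases. For 18 members every KO_TAC library lay above every KO_sham library, which 11.1% of all genes did. No member fell, where 11.5% of all genes fell, and no member's KO_TAC libraries all lay below KO_sham, as in 12% of all genes.

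Against floxed hearts after TAC, 12 of the 30 members rose in KO_TAC and none fell, where 7.53% of all genes rose and 6.8% fell. In 10 members every KO_TAC library lay above every FF_TAC library, and in 1, Cth, below, each of which 6.76% of all genes did. The median was 0.66 over the members and 0.04 over all genes. The 12 were Atf5, Nupr1, Trib3, Gdf15, Mthfd2, Phgdh, Asns, Aldh18a1, Pycr1, Slc3a2, Gars and Sars. Both comparisons use the same KO_TAC libraries, so their values are given side by side and not as support for each other. With the 3 libraries whose Cpt1a goes against their label left out, an analysis added after seeing the data, 31 members were tested. Then 22 rose against KO_sham, where 12.6% of all genes rose. Against FF_TAC 20 members rose, where 11.6% of all genes rose, and Wars fell. All KO_TAC libraries and no others are then low in haemoglobin, so the group and that difference cannot be told apart there. Leaving out FF_TAC 4 alone lowered the count against FF_TAC to 7, where 3.64% of all genes rose. Without the filter on low counts 8 members were called, 7 of the 12 among them, where 4.87% of all genes were called.

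**Figure D1:**
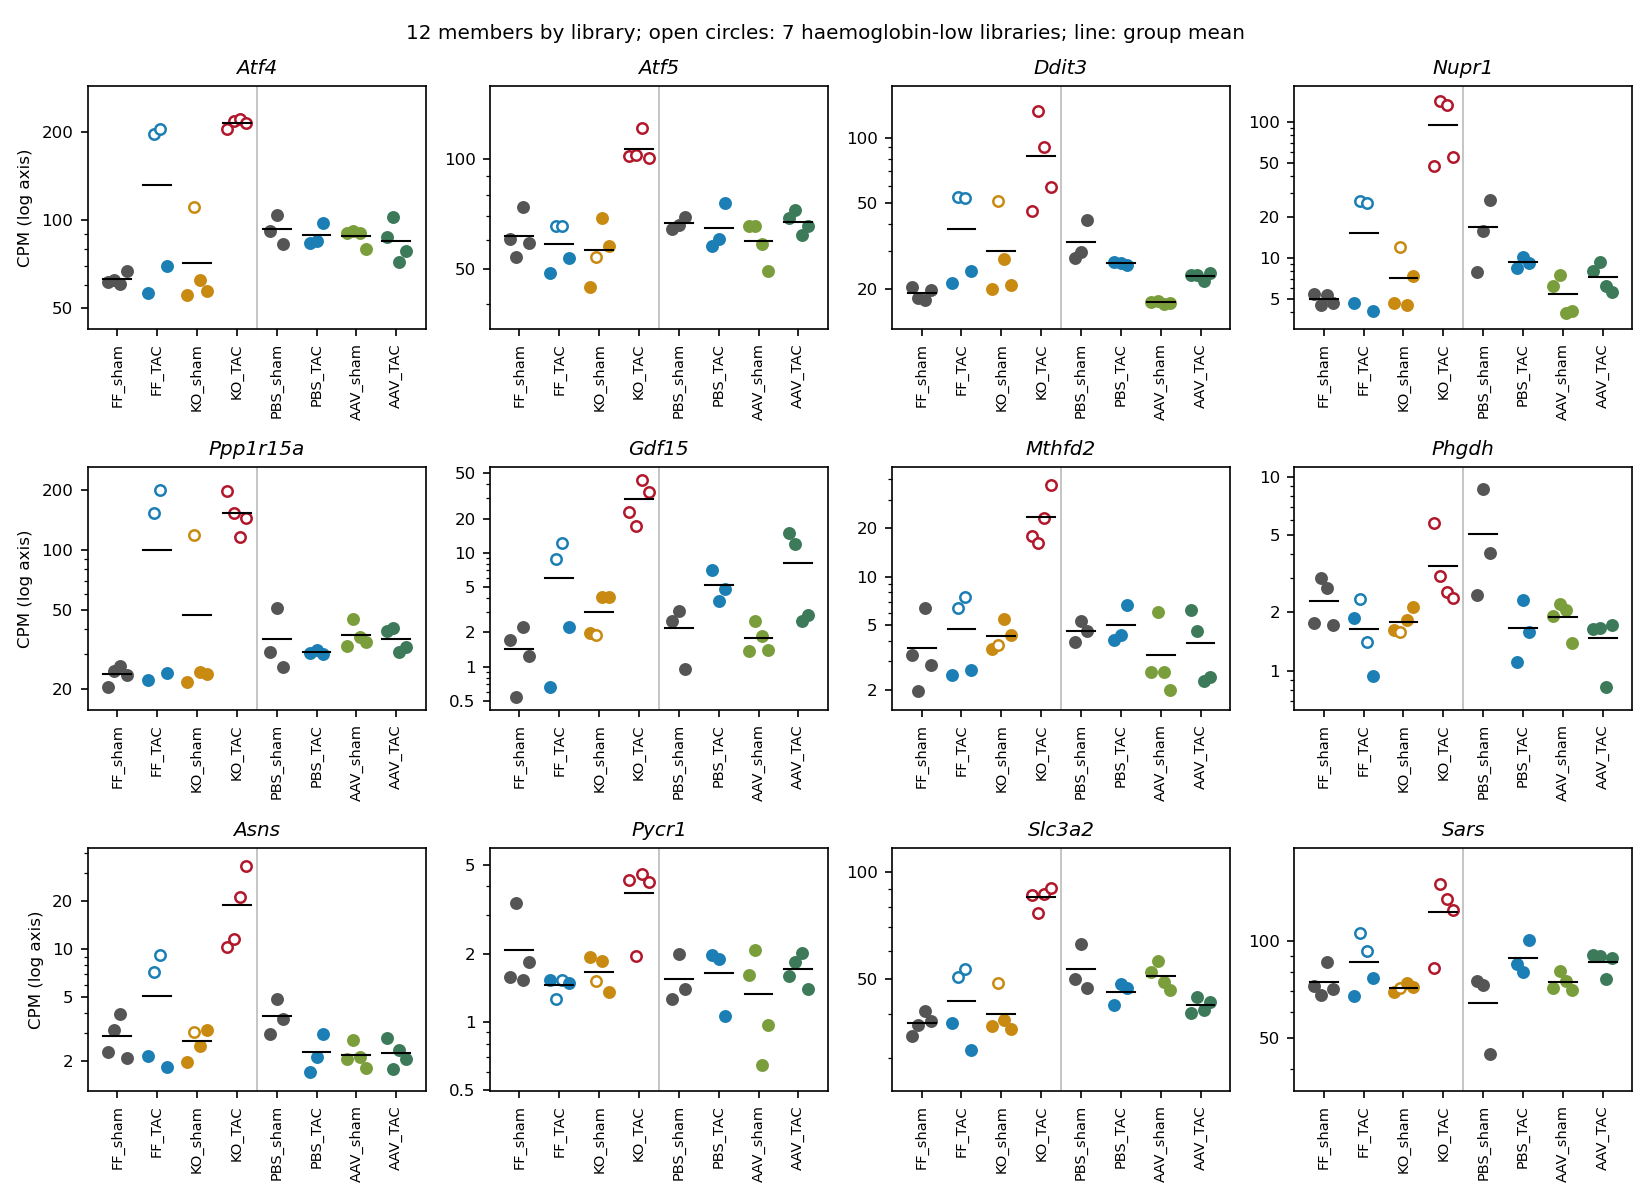
CPM (y axis, per panel) of 12 members in the 30 libraries by group (x axis), with a line at each group mean and open circles for the 7 libraries low in haemoglobin. Atf4 and Nupr1 are high in all 4 KO_TAC libraries and raised in the open circles of FF_TAC and KO_sham, while Atf5 stands at 101 to 122 CPM in KO_TAC and at 44.7 to 74.1 CPM in the other floxed libraries.

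Among the regulators, the bZIP transcription factors Atf4, Atf5 and Ddit3 all rose after TAC in the knockout. Atf4 is the factor through which the response reaches its genes. Its gene lies at chr15:80255184-80257541 on the + strand (GRCm38, GENCODE M21). Atf4 was at 61.4, 62.3, 60.5 and 67.0 CPM in FF_sham and at 55.5, 111, 62.8 and 57.2 CPM in KO_sham. After TAC, Atf4 was at 56.3, 197, 204 and 69.7 CPM in FF_TAC and at 204, 219, 221 and 215 CPM in KO_TAC. Its KO_TAC values lay above all other floxed libraries, but FF_TAC split, with the libraries labelled FF_TAC 2 and 3 close to KO_TAC and FF_TAC 1 and 4 at the sham level. Atf4 rose by 1.59 ± 0.35 (SE) on the log2 scale against KO_sham, edgeR adjusted p = 0.00691. The difference of Atf4 from FF_TAC was 0.70 ± 0.34 (SE), edgeR adjusted p = 0.176. With the 3 libraries that go against their label left out, the difference from FF_TAC was 1.75 (edgeR adjusted p = 2.37e-06). Among the libraries low in haemoglobin alone, 4 of KO_TAC against 2 of FF_TAC, it was 0.07. The first of these fits leaves only KO_TAC low in haemoglobin, so it cannot tell the group from that difference.

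Atf5 is a bZIP factor related to Atf4 that acts on mitochondrial proteostasis. In sham hearts, Atf5 stood at 60.3, 53.9, 74.1 and 58.8 CPM in FF_sham and 44.7, 53.9, 69.2 and 57.8 CPM in KO_sham. In TAC hearts, Atf5 stood at 48.7, 65.8, 65.5 and 53.6 CPM in FF_TAC and 102, 102, 122 and 101 CPM in KO_TAC. The KO_TAC libraries lay above all 12 others, and the libraries labelled FF_TAC 2 and 3 did not stand out. Atf5 rose by 0.92 ± 0.14 (SE) on the log2 scale against KO_sham, edgeR adjusted p = 0.00122, and by 0.87 ± 0.14 (SE) against FF_TAC, edgeR adjusted p = 0.00172. Exons of Atf5 overlap those of Il4i1 and Nup62, so part of its counts is uncertain. Ddit3, also known as CHOP, is a bZIP factor tied to cell death under prolonged stress. Levels of Ddit3 were 20.5, 18.3, 17.8 and 19.9 CPM in FF_sham and 20.1, 51.3, 27.6 and 21.0 CPM in KO_sham. After TAC, Ddit3 levels were 21.3, 53.2, 52.6 and 24.3 CPM in FF_TAC and 45.8, 133, 90.7 and 59.1 CPM in KO_TAC. All 7 libraries low in haemoglobin lay above the other 9, and the library labelled KO_sham 2 lay above KO_TAC 1. Ddit3 rose by 1.45 ± 0.38 (SE) on the log2 scale against KO_sham, edgeR adjusted p = 0.0155. The difference of Ddit3 from FF_TAC was 1.12 ± 0.38 (SE), edgeR adjusted p = 0.0626. Without KO_TAC 2 the first difference was 1.12 (edgeR adjusted p = 0.0555). The exons of Ddit3 overlap those of Mars and Gm4189, which leaves its count uncertain.

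Nupr1, a small stress-induced chromatin protein, had the largest fold change of the 30 tested members in both comparisons. Nupr1 was at 5.38, 4.52, 5.35 and 4.62 CPM in FF_sham and at 4.66, 11.9, 4.53 and 7.32 CPM in KO_sham. After TAC, Nupr1 was at 4.66, 26.2, 25.4 and 4.03 CPM in FF_TAC and at 47.3, 141, 133 and 54.8 CPM in KO_TAC. The KO_TAC libraries lay above all others, and the libraries labelled FF_TAC 2 and 3 and the library labelled KO_sham 2 lay above the remaining 9. Nupr1 rose by 3.73 ± 0.63 (SE) on the log2 scale against KO_sham, edgeR adjusted p = 0.00233, and by 2.64 ± 0.60 (SE) against FF_TAC, edgeR adjusted p = 0.0105. Trib3, a pseudokinase that binds Atf4 and restrains it, had a different pattern. In sham hearts, Trib3 stood at 3.67, 3.60, 3.19 and 4.07 CPM in FF_sham and 3.83, 2.37, 4.94 and 4.02 CPM in KO_sham. In TAC hearts, Trib3 stood at 5.04, 3.44, 2.88 and 3.21 CPM in FF_TAC and 5.02, 6.68, 7.90 and 15.5 CPM in KO_TAC. Every KO_TAC library lay above KO_sham, FF_TAC 1 reached the level of KO_TAC 1, and the libraries labelled FF_TAC 2 and 3 were no higher than sham hearts. Trib3 rose by 1.21 ± 0.31 (SE) on the log2 scale against KO_sham, edgeR adjusted p = 0.0129, and by 1.26 ± 0.31 (SE) against FF_TAC, edgeR adjusted p = 0.0138. KO_TAC 4 was far above the other KO_TAC libraries, and without it the differences were 0.77 and 0.83. Without FF_TAC 4 the call against FF_TAC was lost (edgeR adjusted p = 0.0515), as it was without the 3 libraries that go against their label (edgeR adjusted p = 0.0594).

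Ddit4 and Sesn2, inhibitors of the growth kinase mTORC1, and Eif4ebp1, a repressor of cap-dependent translation, rose against KO_sham. Sesn2 was at 3.91, 4.31, 3.64 and 4.69 CPM in FF_sham and at 3.69, 6.51, 5.52 and 4.23 CPM in KO_sham. After TAC, Sesn2 was at 4.93, 7.72, 12.0 and 3.92 CPM in FF_TAC and at 9.36, 9.99, 10.8 and 17.7 CPM in KO_TAC. KO_TAC lay above KO_sham, and FF_TAC 3 lay within the range of KO_TAC. Sesn2 rose by 1.27 ± 0.31 (SE) on the log2 scale against KO_sham, edgeR adjusted p = 0.0101. The difference of Sesn2 from FF_TAC was 0.75 ± 0.30 (SE), edgeR adjusted p = 0.105. In sham hearts, Eif4ebp1 stood at 61.5, 57.4, 46.8 and 58.5 CPM in FF_sham and 60.2, 53.2, 55.6 and 49.8 CPM in KO_sham. In TAC hearts, Eif4ebp1 stood at 52.1, 82.4, 71.9 and 62.8 CPM in FF_TAC and 59.5, 149, 126 and 80.3 CPM in KO_TAC. KO_TAC 1 lay at the level of sham hearts, while KO_TAC 2 and 3 were above every other floxed library. Eif4ebp1 rose by 0.92 ± 0.22 (SE) on the log2 scale against KO_sham, edgeR adjusted p = 0.0104. The difference of Eif4ebp1 from FF_TAC was 0.62 ± 0.22 (SE), edgeR adjusted p = 0.0728. Levels of Ddit4 were 35.4, 22.7, 14.4 and 28.5 CPM in FF_sham and 19.3, 12.6, 30.4 and 20.1 CPM in KO_sham. After TAC, Ddit4 levels were 28.8, 32.6, 35 and 35.8 CPM in FF_TAC and 34.6, 55.9, 41.0 and 50.6 CPM in KO_TAC. KO_TAC lay above KO_sham, and FF_sham 1, FF_TAC 3 and FF_TAC 4 lay slightly above KO_TAC 1. Ddit4 rose by 1.14 ± 0.26 (SE) on the log2 scale against KO_sham, edgeR adjusted p = 0.00822. The difference of Ddit4 from FF_TAC was 0.46 ± 0.26 (SE), edgeR adjusted p = 0.240.

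Ppp1r15a and Chac1 did not pass the test in either comparison. Ppp1r15a, also known as GADD34, directs a phosphatase to eIF2 and so ends the response. Ppp1r15a was at 20.5, 24.7, 26.2 and 23.6 CPM in FF_sham and at 21.8, 119, 24.3 and 23.7 CPM in KO_sham. After TAC, Ppp1r15a was at 22.3, 153, 202 and 23.9 CPM in FF_TAC and at 198, 154, 116 and 146 CPM in KO_TAC. All 7 libraries low in haemoglobin lay at 116 CPM or more and the other 9 at 26.2 CPM or less, whatever their group. Its log2 fold change was 1.71 ± 0.71 (SE) against KO_sham, edgeR adjusted p = 0.0880, and 0.61 ± 0.69 (SE) against FF_TAC, edgeR adjusted p = 0.573. Its exons overlap those of Tulp2. Chac1 degrades glutathione. In sham hearts, Chac1 stood at 1.28, 3.71, 1.88 and 6.17 CPM in FF_sham and 2.12, 8.76, 2.76 and 3.5 CPM in KO_sham. In TAC hearts, Chac1 stood at 2.30, 14.1, 16.2 and 3.26 CPM in FF_TAC and 6.55, 5.26, 12.4 and 23.3 CPM in KO_TAC. The highest of its values outside KO_TAC were those of the libraries labelled FF_TAC 2 and 3 and the library labelled KO_sham 2. Chac1 differed by 1.48 ± 0.70 (SE) from KO_sham, edgeR adjusted p = 0.128, and by 0.41 ± 0.68 (SE) from FF_TAC, edgeR adjusted p = 0.714. With the 3 libraries that go against their label left out, only KO_TAC is low in haemoglobin, so the group and that difference cannot be told apart. Both genes rose in both comparisons in that fit. Ppp1r15a then stood 2.71 above KO_sham and 2.72 above FF_TAC, and Chac1 2.08 and 2.08 (edgeR adjusted p = 0.0220 and 0.0444).

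Of the secreted factors, Gdf15 rose and Fgf21 was near the limit of detection. Gdf15 is a circulating stress signal that lowers food intake through a receptor in the hindbrain. Its gene lies at chr8:70629393-70632456 on the - strand. Gdf15 was at 1.71, 0.545, 2.22 and 1.23 CPM in FF_sham and at 1.98, 1.88, 4.06 and 4.08 CPM in KO_sham. After TAC, Gdf15 was at 0.658, 8.86, 12.2 and 2.21 CPM in FF_TAC and at 22.9, 17.1, 43.6 and 33.9 CPM in KO_TAC. The 4 KO_TAC libraries were the highest of the cohort, followed by the libraries labelled FF_TAC 2 and 3. Gdf15 rose by 3.29 ± 0.67 (SE) on the log2 scale against KO_sham, edgeR adjusted p = 0.00494, and by 2.30 ± 0.64 (SE) against FF_TAC, edgeR adjusted p = 0.0275. Against FF_TAC the call was lost without FF_TAC 4 (2.02, edgeR adjusted p = 0.0868) and without KO_TAC 3 (2.05, edgeR adjusted p = 0.0821). Fgf21 is a hormone made mainly in the liver and, under mitochondrial stress, in muscle. Its counts were 0, 5, 8 and 4 in KO_TAC, 2, 2, 3 and 2 in KO_sham, 0, 1, 0 and 1 in FF_sham and 0, 1, 0 and 0 in FF_TAC. In the AAV9 cohort the only library above 2 counts was AAV_TAC 2, with 4. Such counts allow no fold. Of the hepatocyte markers, Alb had 0 counts in all 16 floxed libraries, and the sum of Alb, Apoa1 and Ttr was 0.739 to 3.68 CPM in KO_TAC and 0.0523 to 0.730 CPM in the other floxed libraries. Ttr made up most of that sum, at 0.640 to 3.53 CPM in KO_TAC and 0.0523 to 0.730 CPM in the others. Apoa1 was at 0 to 0.150 CPM in KO_TAC and 0 to 0.123 CPM in the others. The part of liver RNA in the counts of Fgf21 was not tested.

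Of the serine and one-carbon genes, Mthfd2 and Phgdh rose in KO_TAC and the other 4 did not pass the test. Mthfd2 is the mitochondrial folate dehydrogenase that is low in most adult tissue and typical of this response. Mthfd2 was at 3.30, 1.96, 6.38 and 2.84 CPM in FF_sham and at 3.60, 3.77, 5.52 and 4.39 CPM in KO_sham. After TAC, Mthfd2 was at 2.47, 6.39, 7.55 and 2.65 CPM in FF_TAC and at 17.7, 16.1, 22.9 and 36.7 CPM in KO_TAC. KO_TAC lay above all 12 other floxed libraries, and the libraries labelled FF_TAC 2 and 3 lay near the top of those. Mthfd2 rose by 2.43 ± 0.41 (SE) on the log2 scale against KO_sham, edgeR adjusted p = 0.00182, and by 2.30 ± 0.40 (SE) against FF_TAC, edgeR adjusted p = 0.00245. Phgdh catalyses the first step from a glycolytic intermediate to serine. In sham hearts, Phgdh stood at 1.77, 3.0, 2.68 and 1.73 CPM in FF_sham and 1.61, 1.58, 1.82 and 2.14 CPM in KO_sham. In TAC hearts, Phgdh stood at 1.86, 2.35, 1.41 and 0.940 CPM in FF_TAC and 5.81, 3.08, 2.56 and 2.38 CPM in KO_TAC. KO_TAC 1 was far above the rest, and the lowest KO_TAC library lay below FF_sham 2 and 3. The atrial marker Myl7 was at 3147 CPM in KO_TAC 1 and at 0.119 to 0.751 CPM in KO_TAC 2, 3 and 4. FF_sham 2 (Myl7 at 1106 CPM) had the highest Phgdh of its group, and the library labelled KO_sham 2 (Myl7 at 602 CPM) the lowest. No atrial covariate was fitted in the floxed cohort, so the part of atrial RNA in Phgdh was not tested. Phgdh rose by 0.95 ± 0.32 (SE) on the log2 scale against KO_sham, edgeR adjusted p = 0.0415, and by 1.08 ± 0.33 (SE) against FF_TAC, edgeR adjusted p = 0.0385. The call was not stable. Against KO_sham it was lost without any one of the 8 libraries except KO_TAC 4, with the lowest difference, 0.56, without KO_TAC 1 (edgeR adjusted p = 0.128). It was also lost without the 3 libraries that go against their label (0.89, edgeR adjusted p = 0.0902). Against FF_TAC it was lost without FF_TAC 1, 3 or 4 or KO_TAC 1 or 2, down to 0.69 without KO_TAC 1.

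Psat1 and Psph, which complete serine synthesis, were at 3.17 to 7.64 and 3.87 to 5.26 CPM in KO_TAC. In the other floxed libraries they were at 2.57 to 5.21 and 3.58 to 5.56 CPM, so neither group stood clear. The exons of Psph overlap those of Cct6a. Shmt2, which splits serine into glycine and a one-carbon unit in mitochondria, was at 40.7 to 53.3 CPM in KO_TAC and 38.6 to 51.3 CPM in the others, and its exons overlap those of Ndufa4l2. Mthfd1l, the mitochondrial enzyme that releases formate, was at 1.87, 2.78, 3.06 and 5.06 CPM in KO_TAC and 1.06, 4.68, 1.3 and 1.05 CPM in KO_sham. Its high KO_sham value is that of the library labelled KO_sham 2. Over these 4 genes the log2 fold changes ran from 0.14 to 0.67 against KO_sham (lowest edgeR adjusted p = 0.105). Against FF_TAC they ran from 0.05 to 0.87 (lowest edgeR adjusted p = 0.0557). Psat1 came nearest to a call against FF_TAC, at 0.80 ± 0.27 (SE). Of the 3 genes of serine synthesis, Phgdh was thus called and Psat1 and Psph were not.

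Genes of asparagine and proline synthesis rose and Cth, of cysteine synthesis, did not. Asns makes asparagine from aspartate and glutamine. Asns was at 2.26, 3.11, 3.93 and 2.1 CPM in FF_sham and at 1.98, 3.04, 2.50 and 3.14 CPM in KO_sham. After TAC, Asns was at 2.14, 7.18, 9.26 and 1.82 CPM in FF_TAC and at 10.4, 11.6, 21.1 and 33.2 CPM in KO_TAC. KO_TAC lay above all other floxed libraries, with the libraries labelled FF_TAC 2 and 3 next. Asns rose by 2.84 ± 0.50 (SE) on the log2 scale against KO_sham, edgeR adjusted p = 0.00241, and by 1.91 ± 0.48 (SE) against FF_TAC, edgeR adjusted p = 0.0161. Aldh18a1 and Pycr1 are the first and last enzymes that turn glutamate into proline. In sham hearts, Aldh18a1 stood at 13.0, 12.4, 14.2 and 10.4 CPM in FF_sham and 9.45, 9.42, 11.4 and 10.2 CPM in KO_sham. In TAC hearts, Aldh18a1 stood at 9.70, 13.1, 12.7 and 11.8 CPM in FF_TAC and 18.5, 15.5, 14.6 and 23.3 CPM in KO_TAC. The KO_TAC libraries again lay above the other 12. Aldh18a1 rose by 0.83 ± 0.15 (SE) on the log2 scale against KO_sham, edgeR adjusted p = 0.00282, and by 0.61 ± 0.15 (SE) against FF_TAC, edgeR adjusted p = 0.0159. Without FF_TAC 1 the second difference was 0.52 (edgeR adjusted p = 0.0584).

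Levels of Pycr1 were 1.59, 3.38, 1.54 and 1.85 CPM in FF_sham and 1.94, 1.52, 1.87 and 1.36 CPM in KO_sham. After TAC, Pycr1 levels were 1.54, 1.27, 1.53 and 1.49 CPM in FF_TAC and 4.29, 1.95, 4.56 and 4.17 CPM in KO_TAC. KO_TAC 2 was lower than the rest of its group and close to KO_sham 1, FF_sham 2 lay above it, and the libraries labelled FF_TAC 2 and 3 did not rise above the range of sham hearts. Pycr1 rose by 1.16 ± 0.29 (SE) on the log2 scale against KO_sham, edgeR adjusted p = 0.0118, and by 1.36 ± 0.29 (SE) against FF_TAC, edgeR adjusted p = 0.00743. Cth, which splits cystathionine to cysteine, went the other way. Cth was at 2.26, 2.56, 1.94 and 1.48 CPM in FF_sham and at 1.24, 2.61, 1.87 and 1.36 CPM in KO_sham. After TAC, Cth was at 2.25, 1.81, 2.15 and 1.33 CPM in FF_TAC and at 0.640, 1.28, 1.11 and 1.25 CPM in KO_TAC. All KO_TAC libraries lay below all FF_TAC libraries and overlapped with KO_sham. Its log2 fold change was -0.73 ± 0.30 (SE) against KO_sham, edgeR adjusted p = 0.0850, and -0.82 ± 0.30 (SE) against FF_TAC, edgeR adjusted p = 0.0807, so Cth passed the test in neither.

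The amino acid transporters differed. Slc3a2 is the heavy chain that carries Slc7a5 and Slc7a11 to the cell surface. Slc3a2 was at 34.6, 37.1, 40.6 and 38.1 CPM in FF_sham and at 36.9, 48.8, 38.3 and 36.2 CPM in KO_sham. After TAC, Slc3a2 was at 37.8, 50.6, 53.3 and 31.6 CPM in FF_TAC and at 86.4, 76.7, 87.1 and 90.04 CPM in KO_TAC. The 4 KO_TAC libraries lay above all others and close together, and the libraries labelled FF_TAC 2 and 3 and the library labelled KO_sham 2 followed. Slc3a2 rose by 1.09 ± 0.15 (SE) on the log2 scale against KO_sham, edgeR adjusted p = 0.000611, and by 0.97 ± 0.15 (SE) against FF_TAC, edgeR adjusted p = 0.00113. Slc7a5 is the light chain that takes up leucine and other large neutral amino acids. In sham hearts, Slc7a5 stood at 4.89, 4.09, 7.97 and 4.69 CPM in FF_sham and 4.66, 5.84, 4.68 and 5.85 CPM in KO_sham. In TAC hearts, Slc7a5 stood at 4.06, 13.6, 15.3 and 6.13 CPM in FF_TAC and 17.6, 10.8, 19.3 and 34.4 CPM in KO_TAC. KO_TAC lay above KO_sham, while the libraries labelled FF_TAC 2 and 3 lay within the range of KO_TAC. Slc7a5 rose by 1.97 ± 0.40 (SE) on the log2 scale against KO_sham, edgeR adjusted p = 0.00449. The difference of Slc7a5 from FF_TAC was 1.07 ± 0.39 (SE), edgeR adjusted p = 0.0746. Without the 3 libraries that go against their label, Slc7a5 stood 2.0 above FF_TAC (edgeR adjusted p = 0.00545). Only KO_TAC is then low in haemoglobin, so the group and that difference cannot be told apart. Slc7a1, the uptake carrier for arginine and lysine, varied within every group, at 31.4 to 67.6 CPM in KO_TAC and 29.1 to 75.3 CPM in the others, and passed neither test. Slc7a11 exchanges cystine for glutamate. It had 19, 5, 11 and 6 counts in KO_TAC, 5, 2, 7 and 3 in KO_sham, 1, 3, 2 and 1 in FF_sham and 0, 1, 0 and 0 in FF_TAC, and at most 3 in any AAV9 library. These counts were too low to test, and no fold is given.

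Of the tRNA synthetases, Aars, Gars, Sars and Nars (for alanine, glycine, serine and asparagine) rose against KO_sham by 1.68 to 1.78 times, and Wars and Mars (for tryptophan and methionine) did not pass the test. Gars was at 68.9, 62.9, 77.3 and 72.5 CPM in FF_sham and at 63.3, 65.3, 70.5 and 65.1 CPM in KO_sham. After TAC, Gars was at 62.4, 91.9, 88.4 and 74.9 CPM in FF_TAC and at 80.7, 125, 123 and 125 CPM in KO_TAC. KO_TAC 1 lay below the libraries labelled FF_TAC 2 and 3, and the other KO_TAC libraries above all. Gars rose by 0.78 ± 0.14 (SE) on the log2 scale against KO_sham, edgeR adjusted p = 0.00283, and by 0.51 ± 0.14 (SE) against FF_TAC, edgeR adjusted p = 0.0271. In sham hearts, Sars stood at 72.5, 68.2, 85.9 and 70.8 CPM in FF_sham and 69.3, 71.6, 73.8 and 71.9 CPM in KO_sham. In TAC hearts, Sars stood at 67.5, 106, 93.2 and 76.7 CPM in FF_TAC and 82.3, 150.5, 136 and 126 CPM in KO_TAC. KO_TAC 1 was again the lowest of its group and lay below the libraries labelled FF_TAC 2 and 3. Sars rose by 0.79 ± 0.17 (SE) on the log2 scale against KO_sham, edgeR adjusted p = 0.00534, and by 0.52 ± 0.17 (SE) against FF_TAC, edgeR adjusted p = 0.0463. Neither call against FF_TAC was stable. That of Gars was lost without FF_TAC 1 or 4 or KO_TAC 2, 3 or 4, at 0.41 to 0.48. That of Sars was lost without FF_TAC 1, 3 or 4 or KO_TAC 2, 3 or 4, at 0.41 to 0.56.

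Levels of Aars were 73.5, 66.0, 85.5 and 62.4 CPM in FF_sham and 65.8, 71.4, 70.8 and 67.7 CPM in KO_sham. After TAC, Aars levels were 69.1, 109, 94.5 and 74.9 CPM in FF_TAC and 90.4, 109, 132 and 132 CPM in KO_TAC. Nars was at 88.7, 81.4, 101 and 86.4 CPM in FF_sham and at 94.1, 94.1, 86.6 and 94.2 CPM in KO_sham. After TAC, Nars was at 89.5, 144, 136 and 99.7 CPM in FF_TAC and at 119.8, 161, 179.8 and 195 CPM in KO_TAC. In both genes KO_TAC lay above KO_sham, and the libraries labelled FF_TAC 2 and 3 lay within the range of KO_TAC. Aars rose by 0.75 ± 0.15 (SE) on the log2 scale against KO_sham, edgeR adjusted p = 0.00459. The difference of Aars from FF_TAC was 0.41 ± 0.15 (SE), edgeR adjusted p = 0.0801. Nars rose by 0.83 ± 0.16 (SE) on the log2 scale against KO_sham, edgeR adjusted p = 0.00346. The difference of Nars from FF_TAC was 0.49 ± 0.16 (SE), edgeR adjusted p = 0.0538. Aars shares exonic bases with Gm24103 and Exosc6. Wars was at 37.4 to 41.9 CPM in KO_TAC and 41.7 to 51.9 CPM in KO_sham, a log2 fold change of -0.20 ± 0.10 (SE), edgeR adjusted p = 0.154. Mars was at 40.9 to 58.5 and 36.2 to 48.7 CPM, a log2 fold change of 0.31 ± 0.12 (SE), edgeR adjusted p = 0.0677. Its exons overlap those of Ddit3.

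**Figure D2:**
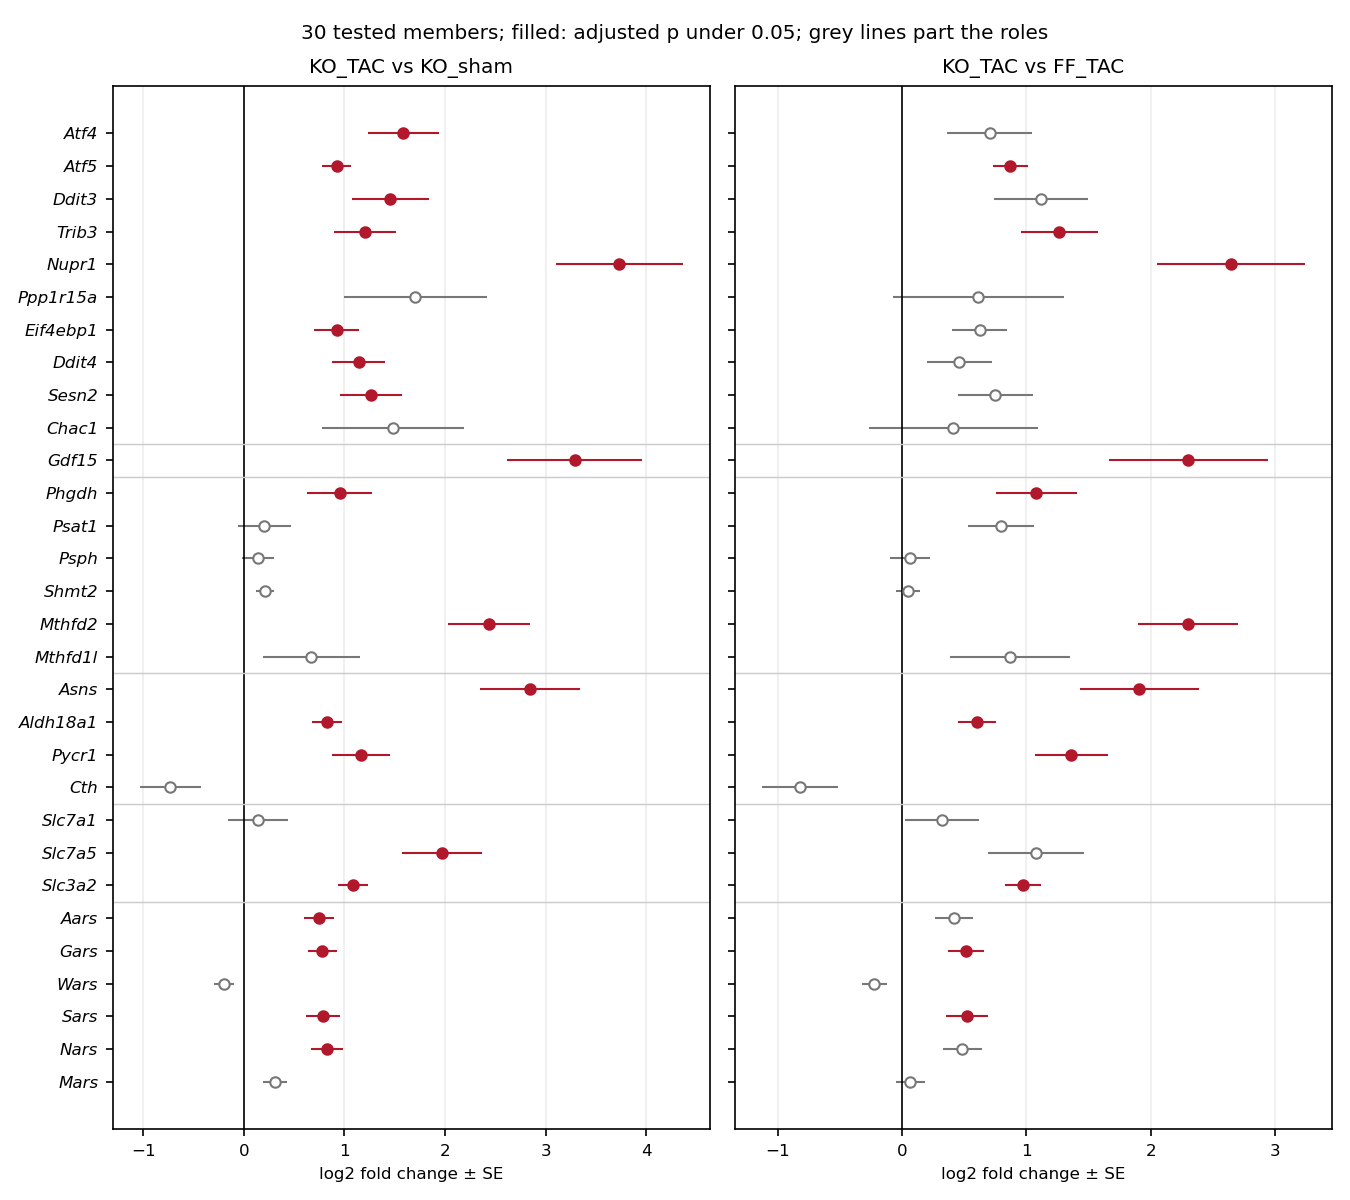
Log2 fold change (x axis) of the 30 tested members (y axis, grouped by role) in KO_TAC against KO_sham and against FF_TAC, with bars of 1 SE on each side and filled points for calls at an adjusted p under 0.05. Nupr1 and Gdf15 lie farthest right, and Cth and Wars lie left of 0 in both panels without being called.

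In floxed control hearts, TAC moved no member past the threshold. Of the 30 tested, 0 were called in FF_TAC against FF_sham by edgeR, 0 by DESeq2 and 0 by limma voom. Of all genes, edgeR called 0 of 15596, DESeq2 1% and limma voom 0%. At an unadjusted p under 0.05, 8 members were higher and 0 lower, where 6.64% of all genes were higher and 4.41% lower. The 8 were Atf4, Ddit3, Gdf15, Nars, Nupr1, Ppp1r15a, Sesn2 and Slc7a5. The group means hide a split. In Atf4 the libraries labelled FF_TAC 2 and 3 had a mean of 201 CPM and FF_TAC 1 and 4 a mean of 63.0 CPM, a ratio of 3.18. The ratio was 7.69 for Ppp1r15a, 7.35 for Gdf15, 5.93 for Nupr1 and 5.45 for Chac1. For Trib3, Pycr1, Psat1 and Psph it was 0.766, 0.925, 0.884 and 0.987, so these genes did not share the split. Each ratio compares 2 libraries with 2 and has no test. The log2 fold change of Atf4 between FF_TAC and FF_sham was 1.07 ± 0.35 (SE), edgeR adjusted p = 0.364, and 0.01 among the libraries high in haemoglobin alone. That of Gdf15 was 2.06 ± 0.70 (SE), edgeR adjusted p = 0.364, and 0.01 among those libraries.

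Across the floxed cohort the tested members fell into patterns by library. In 8 members, Atf4, Atf5, Nupr1, Gdf15, Mthfd2, Asns, Aldh18a1 and Slc3a2, all 4 KO_TAC libraries lay above the other 12, which 3.79% of all tested genes did. In 6 members all 7 libraries low in haemoglobin lay above the other 9, which 4.05% of all genes did. Those 6 were Atf4, Ddit3, Nupr1, Ppp1r15a, Sesn2 and Slc3a2. The patterns share 3 members, Atf4, Nupr1 and Slc3a2, and 19 tested members show neither. KO_TAC can also be set against the other libraries low in haemoglobin that had the same surgery. Its mean was 3.65 times that of the libraries labelled FF_TAC 2 and 3 in Nupr1, 3.35 times in Mthfd2, 2.79 times in Gdf15 and 2.78 times in Trib3. It was 1.07 times in Atf4, 0.865 times in Ppp1r15a and 0.784 times in Chac1. The other tested members lay between 0.541 times (Cth) and 2.67 times (Pycr1). These ratios of 4 libraries to 2 have no test, and their share over all genes is not given. Cpt1a was at 20.3 and 16.2 CPM in the libraries labelled FF_TAC 2 and 3, against their label, so the ratios need not compare genotypes.

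**Figure D3:**
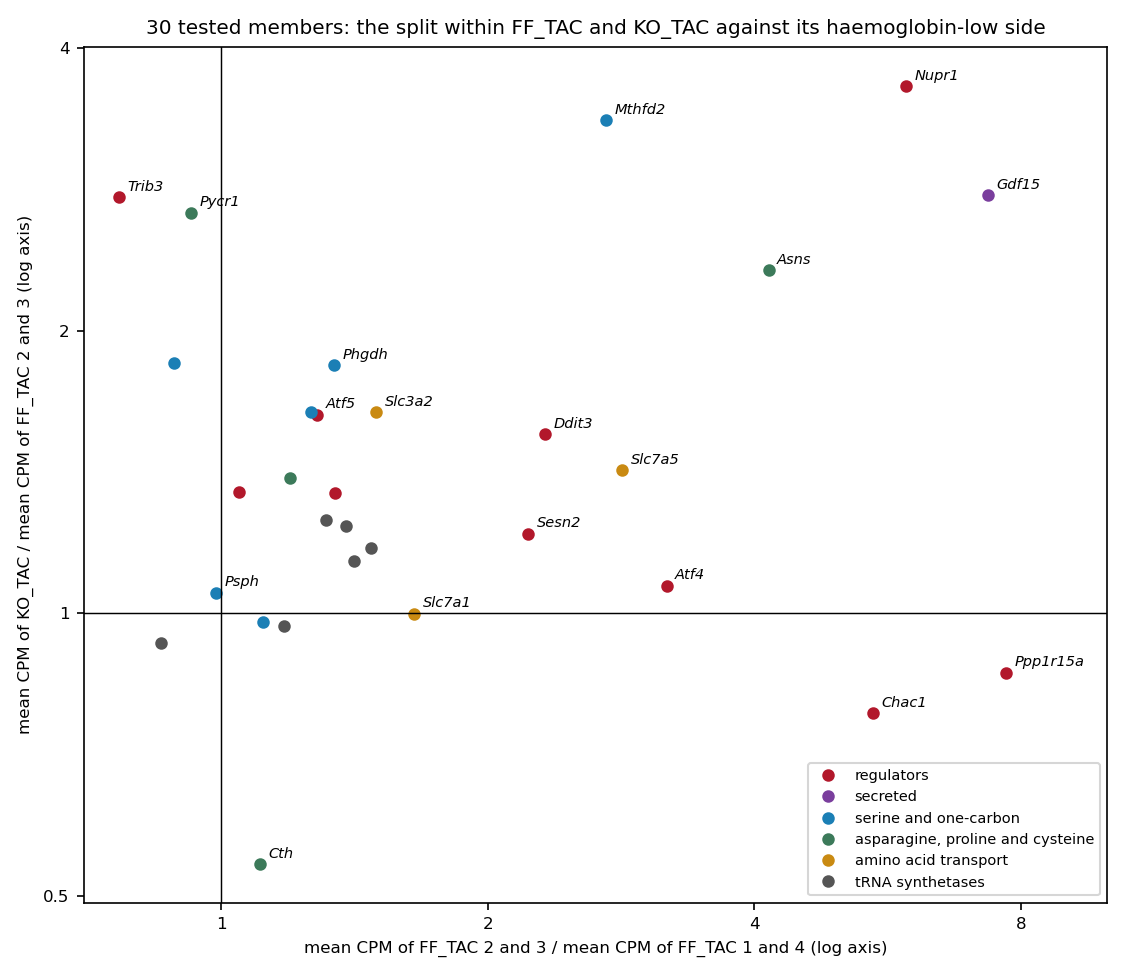
Ratio of the mean CPM of FF_TAC 2 and 3 to that of FF_TAC 1 and 4 (x axis, log scale) against the ratio of KO_TAC to FF_TAC 2 and 3 (y axis, log scale), 1 point per tested member. Ppp1r15a and Chac1 lie far right and below 1, Trib3 and Pycr1 lie left and above 1, and Nupr1 is high on both axes.

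A term for low haemoglobin in the fit lowered the number of calls. With it, 4 members rose in KO_TAC against KO_sham, where 0.866% of all genes rose. They were Nupr1 (2.32), Trib3 (1.67), Atf5 (0.79) and Slc3a2 (0.72). The 20 members called without the term all kept a positive difference, from 0.51 to 2.32. They were picked for being higher in the same KO_TAC libraries, so their sign is no separate support. Atf4 went from 1.59 to 0.61, Ppp1r15a from 1.71 to 0.11 and Chac1 from 1.48 to 0.10. All KO_TAC libraries are low in haemoglobin, so the term is estimated from the splits within FF_TAC and KO_sham alone. Against FF_TAC, 7 members rose with the term, where 3.93% of all genes rose. They were Nupr1 (2.11), Mthfd2 (2.03), Trib3 (1.56), Asns (1.5), Pycr1 (1.44), Atf5 (0.79) and Slc3a2 (0.75). In the libraries low in haemoglobin alone no member was called by edgeR, where 0% of all genes rose. The 12 called over all libraries were all higher there, by 0.28 to 1.84, but they too were picked in the same KO_TAC libraries. What sets the libraries low in haemoglobin apart is not stated in the labels, and its part in these results was not tested beyond these fits.

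**Figure D4:**
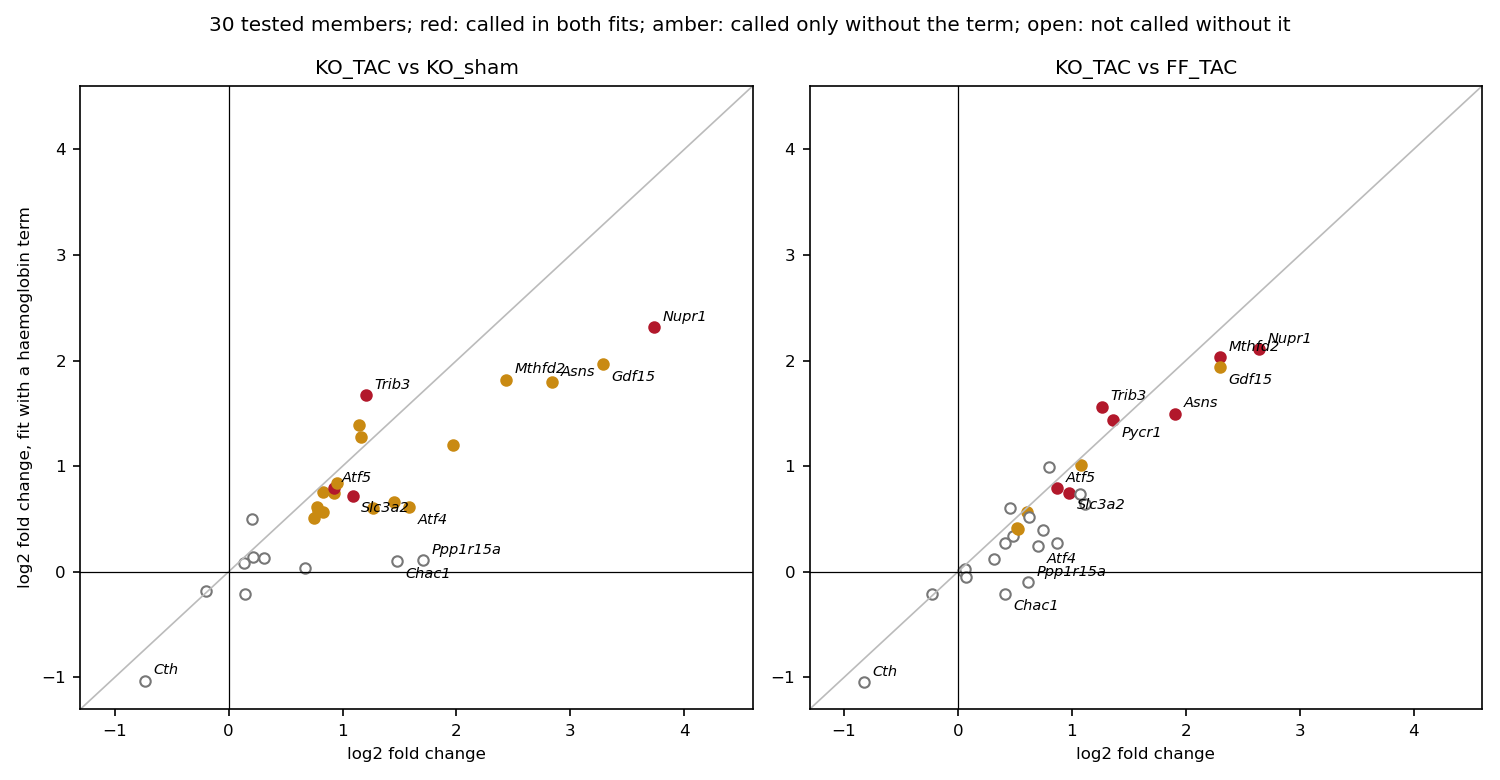
Log2 fold change of the 30 tested members without (x axis) and with (y axis) a term for the 7 libraries low in haemoglobin, for KO_TAC against KO_sham and against FF_TAC, with a diagonal line of equal values. Red points were called in both fits. Nupr1, Gdf15, Asns and Atf4 lie well below the diagonal in the first panel, and Trib3 lies above it in both.

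The response to TAC was compared between genotypes with the interaction term, the difference between the TAC effect in knockout and in floxed hearts. By edgeR 0 of the 30 members were called, where 0.0449% of all genes were. DESeq2 called 5, all higher, where it called 1.26% of all genes higher. By limma voom 17 were called, all higher, where 9.61% of all genes were. At an unadjusted p under 0.05, 13 members were higher and 0 lower by edgeR, where 6.6% of all genes were higher and 6.49% lower. The nearest to a call were Atf5 at 1.0 ± 0.20 (SE), edgeR adjusted p = 0.0672, Slc3a2 at 0.88 ± 0.21 (SE), edgeR adjusted p = 0.103, and Aldh18a1 at 0.91 ± 0.22 (SE), edgeR adjusted p = 0.105. Larger estimates had larger errors, as for Nupr1 at 2.14 ± 0.84 (SE), edgeR adjusted p = 0.296, and Mthfd2 at 2.04 ± 0.57 (SE), edgeR adjusted p = 0.151. With the 3 libraries that go against their label left out, 10 members were called higher, where 3.16% of all genes were. Among those 10, Atf4 was at 1.86, Gdf15 at 3.11 and Ppp1r15a at 2.75. KO_TAC alone is then low in haemoglobin, so the interaction and that difference cannot be told apart.

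Without pressure overload, the genotype label moved no member past the threshold. In KO_sham against FF_sham, edgeR called 0 of 30 members, DESeq2 0 and limma voom 0. Of all genes, edgeR called 0 and limma voom 0.192%. DESeq2 gave an adjusted p for 4792 genes and called 1 of them (0.0209%), so its 0 may cover fewer than 30 members. By edgeR, 1 member was higher and 1 lower at an unadjusted p under 0.05, where 2.69% and 2.43% of all genes were. Shmt2 was lower, at 40.9, 40.1, 41.1 and 38.6 CPM in KO_sham against 50.4, 43.1, 51.3 and 50.7 CPM in FF_sham, a log2 fold change of -0.28 ± 0.09 (SE), edgeR adjusted p = 0.931, and its groups did not overlap, as for 3.55% of all genes in that direction. Mthfd1l was higher by 1.11 ± 0.51 (SE), edgeR adjusted p = 0.973, and by 0.30 without the library labelled KO_sham 2. Psat1 was at 5.21, 3.04, 3.80 and 5.17 CPM in KO_sham and 2.57, 2.94, 3.53 and 2.65 CPM in FF_sham, edgeR adjusted p = 0.980.

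In the AAV9 cohort, whose vector is labelled as carrying Cpt1a, Cpt1a itself was at 37.4 to 68.0 CPM in PBS_sham, 56.3 to 88.4 CPM in AAV_sham, 40.3 to 61.6 CPM in PBS_TAC and 44.8 to 62.7 CPM in AAV_TAC, so these groups overlapped. Atf4 was at 92.1, 104 and 83.1 CPM in PBS_sham and 83.6, 84.8 and 98 CPM in PBS_TAC. With the vector, Atf4 was at 90.7, 92.1, 90.2 and 80.1 CPM in AAV_sham and 87.4, 102, 72.1 and 78.8 CPM in AAV_TAC. For Atf4 too, all 4 groups overlapped. Gdf15 was at 2.52, 3.10 and 0.958 CPM in PBS_sham and 7.02, 3.75 and 4.76 CPM in PBS_TAC. With the vector, Gdf15 was at 1.36, 2.51, 1.87 and 1.39 CPM in AAV_sham and 14.9, 12.0, 2.52 and 2.83 CPM in AAV_TAC. Every PBS_TAC library lay above every PBS_sham library, and the share of all genes that did so is not given here. AAV_TAC 1 and 2 lay well above AAV_TAC 3 and 4, and AAV_TAC 3 (2.52 CPM) was level with AAV_sham 2 (2.51 CPM). The log2 fold change of Gdf15 was 1.26 ± 0.63 (SE) in PBS hearts, edgeR adjusted p = 0.297, and 2.18 ± 0.56 (SE) in AAV9.Cpt1a hearts, edgeR adjusted p = 0.258, so edgeR called neither. DESeq2 called the second (adjusted p = 0.0126).

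After TAC in PBS hearts, 0 of 30 members were called by edgeR, 1 by DESeq2 and 3 by limma voom, where edgeR called 0.0318% of all genes, DESeq2 1.99% and limma voom 1.6%. At an unadjusted p under 0.05, 8 members were higher and 5 lower, where 6.46% and 12% of all genes were. Without PBS_sham 1 edgeR called 6, where it called 11% of all genes, and without PBS_sham 3, the library with few cardiomyocyte transcripts, 0. Phgdh was at 2.47, 8.64 and 4.03 CPM in PBS_sham and 1.11, 2.31 and 1.59 CPM in PBS_TAC. PBS_sham 2 was high and PBS_TAC lay below all PBS_sham libraries. Its log2 fold change was -1.59 ± 0.42 (SE), edgeR adjusted p = 0.145. Mthfd1l lay higher after TAC, by 1.26 ± 0.38 (SE), edgeR adjusted p = 0.168, and Chac1 by 0.99 ± 0.30 (SE), edgeR adjusted p = 0.172. After TAC in AAV9.Cpt1a hearts, edgeR called 0 members, DESeq2 1 and limma voom 2, where edgeR called 0.00635% of all genes, DESeq2 0.563% and limma voom 2.33%. At an unadjusted p under 0.05, 4 members were higher and 3 lower, where 3.36% and 3.65% of all genes were. Ddit3 was at 17.5, 17.7, 17.1 and 17.2 CPM in AAV_sham and 23.1, 23.2, 21.8 and 23.7 CPM in AAV_TAC, which did not overlap, with a log2 fold change of 0.40 ± 0.12 (SE), edgeR adjusted p = 0.329. Slc7a5 was higher by 0.64 ± 0.21 (SE), edgeR adjusted p = 0.454, and Aldh18a1 by 0.39 ± 0.12 (SE), edgeR adjusted p = 0.410.

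The single edgeR call of the AAV9 cohort was Ddit3, which fell in AAV_sham against PBS_sham. It was at 27.8, 29.7 and 41.8 CPM in PBS_sham and at 17.5, 17.7, 17.1 and 17.2 CPM in AAV_sham. The groups did not overlap, and PBS_sham 3, the library with few cardiomyocyte transcripts, was the highest. The log2 fold change was -0.93 ± 0.12 (SE), edgeR adjusted p = 0.0220, where 0.0127% of all genes fell. Without PBS_sham 3 it was -0.73 and was still called. Without any one of the AAV_sham libraries it was -0.94 to -0.92 and was no longer called (edgeR adjusted p = 0.0664 to 0.150). The atrial marker Myl7 varied widely within the groups, and with it as a covariate Ddit3 was no longer called (-0.94, edgeR adjusted p = 0.0868). Without adjustment, 3 members were higher and 5 lower at a p under 0.05, where 5.84% and 14.8% of all genes were. Without PBS_sham 1, 4 members were called, where 17.4% of all genes were. DESeq2 called 3 members and limma voom 2, where they called 1.75% and 0.445% of all genes. Nupr1 (-1.63), Phgdh (-1.41), Asns (-0.82) and Trib3 (-0.78) were lower in log2 terms without being called, with edgeR adjusted p from 0.116 to 0.154.

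Between the TAC groups of that cohort edgeR called 0 members, where it called 0.0381% of all genes, DESeq2 1 and limma voom 1. The latter tools called 0.122% and 0.616% of all genes. At an unadjusted p under 0.05, 0 members were higher and 3 lower, where 1.23% and 1.98% of all genes were. Mthfd1l was at 2.58, 3.52 and 3.34 CPM in PBS_TAC and 1.10, 0.922, 0.694 and 0.961 CPM in AAV_TAC, a log2 fold change of -1.76 ± 0.36 (SE), edgeR adjusted p = 0.206, and DESeq2 and limma voom both called it. Chac1 was at 4.80, 5.82 and 3.92 CPM in PBS_TAC and 2.0, 2.13, 2.84 and 3.41 CPM in AAV_TAC. In both genes the groups did not overlap, and the share of all genes that separated so is not given here. For the interaction of vector and TAC, edgeR called 0 members, DESeq2 1 and limma voom 1, where of all genes edgeR called 0.00635%, DESeq2 0.108% and limma voom 0.0826%. In that test 4 members were higher and 2 lower at an unadjusted p under 0.05, where 4.55% and 2.35% of all genes were. The estimate was -1.80 ± 0.40 (SE) for Chac1, edgeR adjusted p = 0.547, and 0.73 ± 0.17 (SE) for Ddit3, edgeR adjusted p = 0.690.

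**Figure D5:**
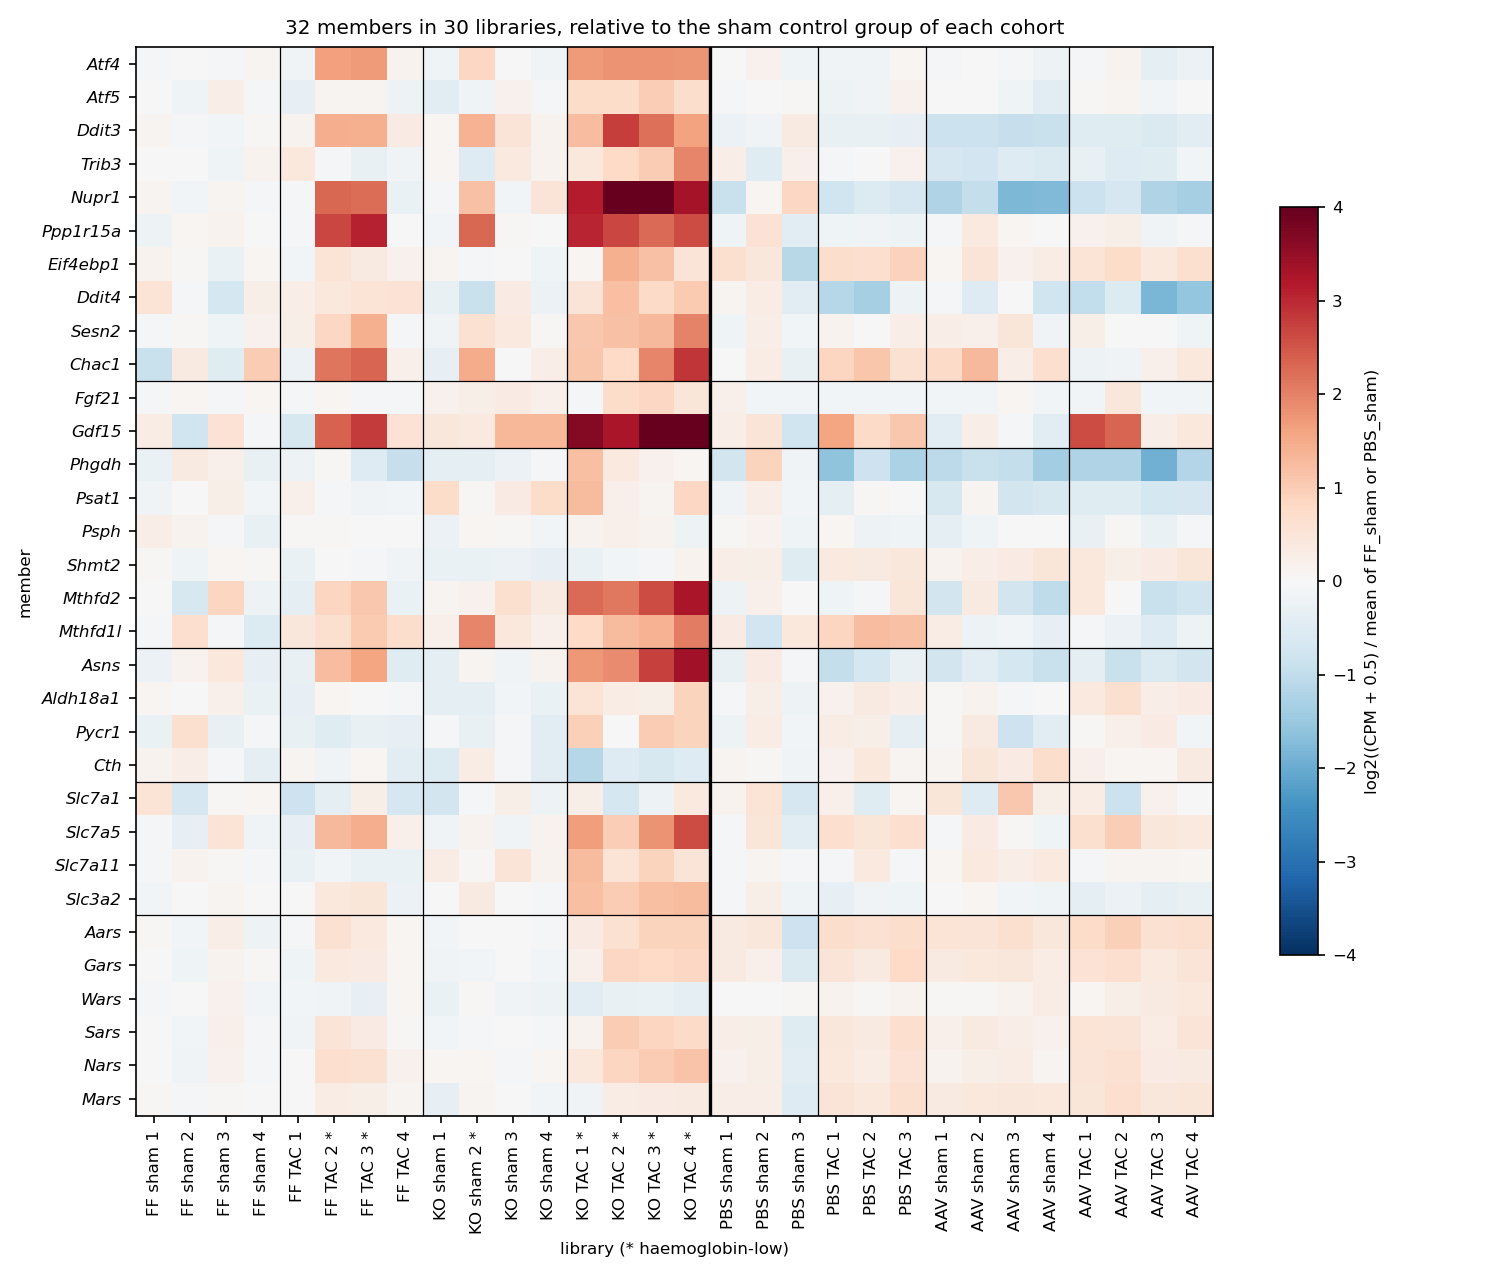
Log2 ratio of CPM plus 0.5 to the mean of FF_sham or PBS_sham (colour, limited to 4 on either side) for the 32 members (y axis, by role) in the 30 libraries (x axis, asterisks for those low in haemoglobin). The KO_TAC columns are red in most rows and darkest in Nupr1 and Gdf15, and the libraries labelled FF_TAC 2 and 3 are red in Atf4, Ddit3, Nupr1, Ppp1r15a, Chac1, Gdf15, Asns and Slc7a5. In the AAV9 cohort the deepest red is Gdf15 in AAV_TAC 1 and 2.

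Other genes of the response were counted from lists, beside the 14.3% of all genes that rose and the 11.5% that fell in KO_TAC against KO_sham. In KO_TAC against KO_sham, 6 of 10 further bZIP factors rose and none fell, among them Maff (2.82), Jdp2 (1.74), Cebpd (1.67) and Cebpb (1.09). Of 14 genes of the eIF2 kinases, eIF2 and their regulators, 5 rose, with Eif2s2 (1.08), a subunit of eIF2, and Ppp1r15b (0.80), the constitutive counterpart of Ppp1r15a, the largest. In the same list 2 fell, Dele1 (-0.42) and Oma1 (-0.28), the relay that signals mitochondrial damage to the eIF2 kinase Eif2ak1. Of 14 further cytosolic tRNA synthetases 6 rose, led by Cars (1.29) and Yars (0.82), and none fell. Of 17 mitochondrial tRNA synthetases none rose and 4 fell, Nars2 (-0.45), Iars2 (-0.40), Hars2 (-0.40) and Cars2 (-0.34). The medians were 0.26 for the cytosolic and -0.13 for the mitochondrial list, and 0.02 over all genes.

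Of 21 tested genes among the other amino acid and one-carbon genes, 2 rose and 3 fell against KO_sham, near the shares over all genes (14.3% and 11.5%). The rises were Slc1a4 (1.34), a carrier of serine and alanine, and Slc38a2 (0.83), an amino acid carrier. The falls were Gpt2 (-0.99), Stc2 (-0.74) and Vldlr (-0.41). Endoplasmic reticulum chaperones rose in 5 of 12 genes, with Creld2 (0.99) and Manf (0.72) the largest. Of 10 mitochondrial chaperones and proteases 2 rose, Hspe1 (0.78) and Lonp1 (0.56), and Clpx fell (-0.27), again near those shares. Against FF_TAC, where 7.53% of all genes rose and 6.8% fell, 0 of 14 further cytosolic synthetases were called by edgeR. There 1 of 10 bZIP factors, Jdp2 (1.24), rose, 7 of 12 endoplasmic reticulum chaperones rose, led by Sdf2l1 (1.09) and Creld2 (0.98), and 7 of 17 mitochondrial synthetases fell, led by Iars2 (-0.47) and Aars2 (-0.45). Slc1a4 (1.26) and Slc38a2 (0.60) rose, and Gpt2 (-0.91), Vldlr (-0.59), Dele1 (-0.67) and Oma1 (-0.31) fell. Of the 12 early response genes 1, Ier3 (2.06), rose against KO_sham and 0 were called against FF_TAC by edgeR, and their sum moved with the libraries low in haemoglobin as given above. In both comparisons the values in parentheses are log2 fold changes of genes that edgeR called.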

How the data were processed

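Libraries were made from poly(A) RNA with a directional kit, per the labels' protocols. The authors deposited raw counts per gene, unnormalized, from HISAT2 2.1.0 alignment to GRCm38 and featureCounts of Subread 1.5.1, per the submitters' processing notes. The annotation release and the strand setting are not given in the sources used here, so genes with overlapping exons are uncertain. Depth was 14839758 to 22070373 counts per library, which leaves Fgf21 and Slc7a11 below the filter.

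Each cohort was fitted on its own in R 4.3.3 with edgeR 4.0.16 (filterByExpr, TMM scaling, robust quasi-likelihood F test, Benjamini-Hochberg adjustment over all genes tested, 15596 in the floxed and 15745 in the AAV9 cohort) and called at an adjusted p under 0.05. CPM were computed from the counts and the TMM-scaled totals within a cohort. Gene symbols and exonic lengths came from GENCODE M21. Groups came from the labels, and 10 comparisons were made. For the AAV9 cohort the share of all genes whose groups did not overlap is not given, so such statements there describe single genes only. Shares of all genes called by DESeq2 are over the genes to which it gave an adjusted p. Alternatives were DESeq2 1.42.0, limma 3.58.1 voom with quality weights, RLE scaling, no filter, the replicate block and leaving out each library. The floxed cohort also had a haemoglobin term and fits of libraries of 1 haemoglobin level alone, and the AAV9 cohort an atrial covariate. Leaving out the 3 libraries whose Cpt1a goes against their label was chosen after seeing the data. In data simulated on KO_TAC against KO_sham (15596 genes, 200 changed), edgeR recovered 56% of changes of 1 on the log2 scale and 85% of changes of 2, and 4.08% of its calls were false, against 18.3% for DESeq2. The simulated libraries varied independently and few genes changed, while edgeR called 25.8% of all genes in the deposited data. These rates therefore need not carry over.

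The members and lists were chosen with earlier results of these data known. Members called in any comparison, with Atf4, Gdf15 and Fgf21, are given with every floxed library, and of each list at most 4 called genes with the largest change are named per comparison. Ppp1r15a, Chac1, Cth, Mthfd1l, Shmt2, Psat1 and the values by library from the AAV9 cohort were added after their values were seen. Work on miR370 that the series design names was not analysed here.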

Additional observations from a re-analysis of the deposited data

Results flagged for a closer look

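A library was singled out where its gap to the nearest of the other 3 libraries of a group of 4 was too large a share of the group's whole range (Dixon's critical value for 4 values). This test was made on 192 sets of 4 values, 1 for each member and group, and found 18. Chance alone singles out about 1 in 20 groups.

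Of these, 4 came from the library labelled KO_sham 2. Atf4 was at 111 CPM in KO_sham 2 and 55.5 to 62.8 CPM in the rest of the group. Ppp1r15a was at 119 CPM in KO_sham 2 and 21.8 to 24.3 CPM in the rest of the group. Mthfd1l was at 4.68 CPM in KO_sham 2 and 1.05 to 1.3 CPM in the rest of the group, and Slc3a2 was at 48.8 CPM in KO_sham 2 and 36.2 to 38.3 CPM in the rest of the group. In KO_TAC, Atf5 was at 122 CPM in KO_TAC 3 and 101 to 102 CPM in the rest of the group, and Psph was at 3.87 CPM in KO_TAC 4 and 5.07 to 5.26 CPM in the rest of the group. In the same group Gars was at 80.7 CPM in KO_TAC 1 and 123 to 125 CPM in the rest of the group. Pycr1 stood apart in 3 groups. Pycr1 was at 1.95 CPM in KO_TAC 2 and 4.17 to 4.56 CPM in the rest of the group. It was at 3.38 CPM in FF_sham 2, against 1.54 to 1.85 CPM, and at 1.27 CPM in the library labelled FF_TAC 2, against 1.49 to 1.54 CPM. Among the other floxed libraries, Shmt2 was at 43.1 CPM in FF_sham 2 and 50.4 to 51.3 CPM in the rest of the group, and Nars was at 86.6 CPM in KO_sham 3 and 94.1 to 94.2 CPM in the rest of the group.

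In the AAV9 cohort 2 of these values came from AAV_sham 2. Psat1 was at 5.33 CPM in AAV_sham 2 and 2.75 to 2.92 CPM in the rest of the group. Mthfd2 was at 6.07 CPM in AAV_sham 2 and 2.0 to 2.57 CPM in the rest of the group. Atf4 was at 80.1 CPM in AAV_sham 4 and 90.2 to 92.1 CPM in the rest of the group. AAV_TAC 3 was low in a pair of members. Phgdh was at 0.821 CPM in AAV_TAC 3 and 1.65 to 1.73 CPM in the rest of the group, and Sars was at 76.4 CPM in AAV_TAC 3 and 88.8 to 90.8 CPM in the rest of the group. Fgf21 was at 0.230 CPM in AAV_TAC 2, which is 4 counts, and had 0 counts in the rest of the group.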

How the results depend on the processing

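In KO_TAC against KO_sham the count of 20 was 20 by DESeq2, 24 by limma voom, 20 with RLE scaling and 19 without the filter. Of the 20 members of the main fit, 20, 19, 20 and 19 were among them. Of all genes, these fits called 25.5%, 53.4%, 26% and 8.78%. With a haemoglobin term 4 members were called, where 1.78% of all genes were. Leaving out 1 library at a time gave 18 to 21, where 12.4% to 40.6% of all genes were called. In KO_TAC against FF_TAC the count of 12 became 17 by DESeq2, which called 16% of all genes. By limma voom it became 19, where 38.5% of all genes (6002 of 15596) were called. Without the filter it was 8 (7 of the 12 among them), where 4.87% of all genes were called. With the haemoglobin term it was 7, where 7.25% were, and among the libraries low in haemoglobin alone 0, where 0% were. Without 1 library it was 7 to 15, where 7.06% to 24.4% of all genes were called, with 7 without FF_TAC 4. Without the 3 libraries whose Cpt1a goes against their label it was 21, of which 11 are among the 12. That fit called 22.4% of all genes and leaves only KO_TAC low in haemoglobin. For the interaction of knockout and TAC the count of 0 became 5 by DESeq2, 17 by limma voom, 1 with the haemoglobin term, 10 without those 3 libraries and 0 to 2 without 1 library (2 without KO_TAC 1 and 1 without KO_TAC 4). Of all genes, these fits called 2.5%, 18.8%, 0.0513%, 5.1% and 0% to 1.46%. In PBS_TAC against PBS_sham the count of 0 became 1 by DESeq2, 3 by limma voom and 0 to 6 without 1 library. There 1.99%, 1.6% and 0% to 11% of all genes were called. In AAV_TAC against AAV_sham the count of 0 became 1 by DESeq2 and 2 by limma voom, where 0.563% and 2.33% of all genes were called. In AAV_sham against PBS_sham the count of 1 became 3 by DESeq2, 2 by limma voom, 0 with the atrial covariate and 0 to 4 without 1 library. Of all genes, 1.75%, 0.445%, 0.00635% and 0.00636% to 17.4% were called. In AAV_TAC against PBS_TAC and in the interaction of vector and TAC the count of 0 became 1 by DESeq2 and 1 by limma voom. Of all genes, these tools called 0.122% and 0.616% in the former and 0.108% and 0.0826% in the latter. The cause of these changes was not tested.

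Some differences that were not called changed sign. In FF_TAC against FF_sham, Chac1 was at -0.036 with the haemoglobin term. Among the libraries high in haemoglobin alone and without the 3 libraries, respectively, Chac1 was at -0.22 and -0.23, Nupr1 at -0.19 and -0.19, Ppp1r15a at -0.038 and -0.042, and Slc7a5 at -0.084 and -0.088. In KO_TAC against FF_TAC, with the term and among the libraries low in haemoglobin alone, Chac1 was at -0.21 and -0.38 and Ppp1r15a at -0.095 and -0.23, and Chac1 was at -0.15 (without KO_TAC 4) to 0.86 (without FF_TAC 3) when 1 library was left out. Of 158 medians over the members that were recomputed, 146 moved by less than 1 SD between replicates.

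Same-numbered floxed libraries deviated together in 9 of 24 pairs and AAV9 libraries in 7 of 19 (correlation over 0.1). The mean correlation of same-numbered pairs was -0.0075 in the floxed and 0.011 in the AAV9 cohort. For differently numbered pairs it was 0.0060 and -0.0031. These values showed no pairing by replicate number and cannot exclude one. With the replicate block, 21 members were called against KO_sham (19 of the 20 among them) and 13 against FF_TAC (12 of the 12 among them). The interaction of knockout and TAC gave 1 (Atf5) and AAV_sham against PBS_sham 0. Of all genes, these fits called 24.8%, 13.7%, 0.135% and 0%.

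In data simulated on KO_TAC against KO_sham, edgeR recovered 56% of changes of 1 on the log2 scale. That simulation changed 200 of 15596 genes, while edgeR called 25.8% of all genes in the deposited data. Its rates therefore do not describe the members, of which 4 tRNA synthetases were called at 0.75 to 0.83 in that comparison. Which changes in the members were detectable with 4 libraries a group was not tested. Sequencing depth limits Fgf21 and Slc7a11 to counts. CPM is relative within a library, and a change in total RNA per heart would not be seen.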
